A study of Arabidopsis thaliana with 6 samples.

Results

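The genes described here are 10 Arabidopsis loci of flavonol and flavonoid synthesis, taken by a fixed list of locus identifiers out of 32627 loci on the arrays. The list itself was drawn up with earlier results of these data known. They comprise 7 enzyme genes, TT4, TT5, F3H, TT7, FLS1, DFR and LDOX, and 3 genes for MYB transcription factors, MYB11, MYB12 and MYB111. All 10 were found, each as 1 row of the deposited tables built from 3 or 4 probes. No filter on low values was applied, so every one of them was tested.

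Flavonoids are phenolic pigments and signalling compounds made from a product of the general phenylpropanoid pathway. Chalcone synthase (TT4), chalcone isomerase (TT5) and flavanone 3-hydroxylase (F3H) act in sequence to make dihydroflavonols. From there flavonol synthase (FLS1) leads to flavonols, which in roots are known as modulators of auxin transport, while DFR and LDOX lead to anthocyanidins. MYB11, MYB12 and MYB111 are closely related activators of the flavonol branch, and MYB12 is known as the main one in roots.

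Root RNA was measured on 6 one-colour arrays, 3 from a pER8::OBP4 line and 3 from a pER8::GFP line that served as control. pER8 is a vector whose promoter responds to estradiol, which switches on OBP4, a DOF transcription factor, in one line and GFP in the other. Both lines were grown in 16 h light and 8 h dark, with light at 75 µmol per square metre per second. Seedlings of both lines were 5 days old when moved to 10 µM estradiol for 8 h, and the labels describe the replicates as biological, from separately cultured plates. Both groups thus carry an induced transgene and received the same estradiol, and arrays without estradiol were not analysed here, so line differences present before induction and effects of the induced gene cannot be told apart. The labels do not say how many independent transformants stand behind a line.

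The arrays followed their labels. OBP4 itself stood at 15.81 ± 0.07 in OBP4 roots and 14.54 ± 0.21 in control roots (SD, n = 3 each, log2), with limma's adjusted p = 0.0028, for transgene and endogenous transcripts together as far as the probes match both. Its level in OBP4 roots was close to 16, the highest log2 value that a 16-bit scanner can record, so the rise may be compressed. Array medians over all loci lay between 11.60 and 11.65 on the log2 scale, and correlations across loci were 0.982 to 0.995 within groups and 0.970 to 0.985 between them. All 12 root marker genes were at 9.33 or above on every array. Their list mean was 13.38 to 13.46 on OBP4 arrays and 13.92 to 14.01 on control arrays. The list medians were closer, 14.10 to 14.27 on OBP4 arrays and 14.33 to 14.55 on control arrays. Of these markers 4 fell, the root hair genes COBL9, EXPA7 and RHD6 and, by 3.65, the nitrate transporter gene NRT2.1. Root hair markers thus moved with the group, and their part in the results was not tested. The 29 photosynthesis genes taken as markers of shoot tissue differed between arrays of one group, with medians of 15.36, 11.38 and 13.50 on OBP4 arrays 1 to 3 and 12.24, 11.67 and 13.21 on control arrays 1 to 3. In whole roots, fewer cells of a type and less RNA per cell cannot be told apart.

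Only TT7, the flavonoid 3'-hydroxylase gene, passed the test among the 10 genes, and it fell. By limma with adjustment over all loci, 1 of 10 genes was lower and 0 were higher at an adjusted p under 0.05, while 13.7% of all loci passed in either direction, 8.48% as lower and 5.23% as higher. At an unadjusted p under 0.05, 5 of the 10 genes were lower and 1 was higher, where 15.4% and 13.2% of all loci were. The 3 OBP4 arrays lay below the 3 control arrays for TT5, F3H, TT7, FLS1 and MYB12 and above them for MYB11 and MYB111. Such separation without overlap was found at 36.9% of all loci, 18.9% as lower and 18% as higher. The median difference of the 10 genes was -0.17 on the log2 scale, beside 0.02 over all loci.

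**Figure D1:**
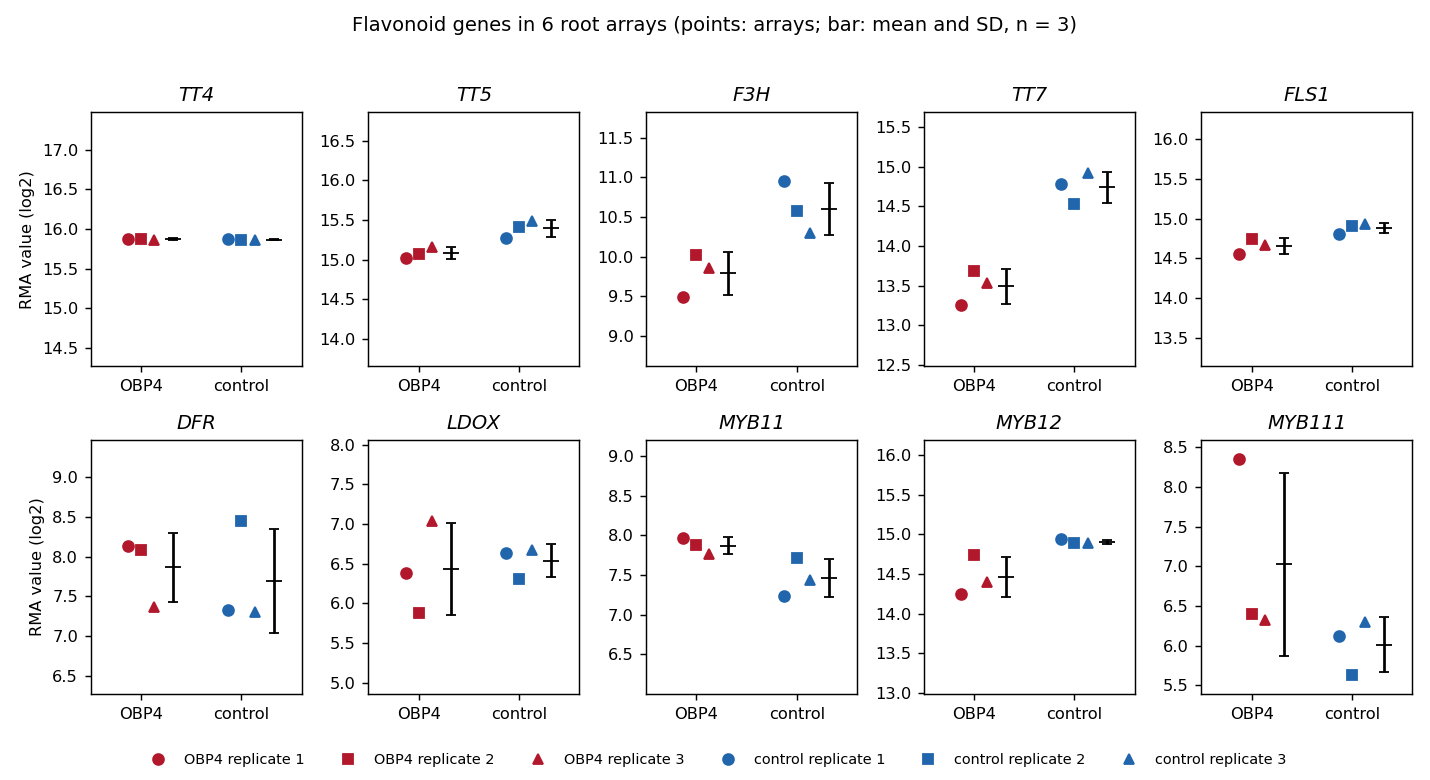
Deposited log2 values of the 10 genes on each array, with OBP4 arrays on the left and control arrays on the right of each panel; points are arrays, the symbol gives the replicate number, and the bar gives the mean and SD of 3 arrays. All panels span the same log2 range around their own centre. TT7 shows the clearest gap, 13.49 against 14.74, TT4 sits at the same height in all 6 arrays, and MYB111 has 1 high array at 8.36.

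TT4 encodes chalcone synthase, the first committed enzyme of the pathway (AT5G13930; chromosome 5, 4488688 to 4490264, forward strand; all positions here are those printed in the array's gene annotation, for which no build is named in the sources used). Its log2 values were 15.88, 15.88 and 15.86 on OBP4 arrays and 15.87, 15.86 and 15.87 on control arrays. Every array was thus close to the highest value that a 16-bit scanner can record, 16 on this scale, where a change would be compressed. The difference was 0.01 ± 0.05 (SE) with a 95% interval from -0.13 to 0.14 and limma's adjusted p = 0.956, so no change was detectable at this brightness.

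TT5, the chalcone isomerase gene (AT3G55120; chromosome 3, 20430114 to 20431470, reverse strand), stood at 15.02, 15.07 and 15.16 on OBP4 arrays and at 15.28, 15.41 and 15.49 on control arrays. The groups did not overlap, but the gap was small. The control arrays were near the scanner's ceiling, where a change would be compressed. The difference was -0.31 ± 0.08 (SE; 95% interval -0.52 to -0.10) with limma's adjusted p = 0.0722, short of the threshold. F3H, which hydroxylates flavanones (AT3G51240; chromosome 3, 19025264 to 19026939, forward strand), had 9.49, 10.02 and 9.85 on OBP4 arrays and 10.95, 10.57 and 10.29 on control arrays. Its control arrays spread widely, yet the lowest of them was still above every OBP4 array. The difference of -0.82 ± 0.22 (SE; 95% interval -1.36 to -0.27) had an adjusted p of 0.0689 by limma.

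TT7 encodes the cytochrome P450 that adds the second hydroxyl group to the flavonoid B ring and so turns the kaempferol series into the quercetin series (AT5G07990; chromosome 5, 2560394 to 2563109, forward strand). It had 13.25, 13.68 and 13.54 on OBP4 arrays against 14.78, 14.52 and 14.92 on control arrays. Every OBP4 array was lower than every control array, and the gap between the groups was wider than the spread within either. TT7 averaged 13.49 ± 0.22 in OBP4 roots and 14.74 ± 0.20 in control roots (SD, n = 3 each). It fell by 1.25 ± 0.16 (SE) on the log2 scale, which left 42.2% of the control level, with limma's adjusted p = 0.00653 and a 95% interval from -1.64 to -0.86. TT7 passed in all 6 fits that left out 1 array, with differences from -1.35 to -1.13. With the replicate number as a block its adjusted p by limma was 0.0546, but same-numbered arrays did not vary together.

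FLS1, the flavonol synthase gene (AT5G08640; chromosome 5, 2803958 to 2805447, forward strand), draws on the products of F3H and TT7. Its values were 14.55, 14.75 and 14.67 on OBP4 arrays and 14.81, 14.91 and 14.93 on control arrays. The OBP4 arrays lay lower without overlap, by a narrow margin. The difference of -0.23 ± 0.08 (SE; 95% interval -0.43 to -0.03) did not pass, with an adjusted p of 0.132 by limma.

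The genes of the anthocyanidin branch were dim in both groups. DFR, dihydroflavonol reductase (AT5G42800; chromosome 5, 17164141 to 17165918, reverse strand), had 8.14, 8.09 and 7.37 on OBP4 arrays and 7.32, 8.45 and 7.30 on control arrays, so that the groups overlapped. Its difference was 0.18 ± 0.39 (SE; 95% interval -0.80 to 1.15), adjusted p = 0.806 by limma. LDOX, leucoanthocyanidin dioxygenase (AT4G22880; chromosome 4, 12004768 to 12006209, reverse strand), had 6.38, 5.88 and 7.04 on OBP4 arrays and 6.64, 6.30 and 6.67 on control arrays. That is below the 25th percentile of all loci, which was 7.37 to 7.52 across the arrays. Its difference was -0.11 ± 0.31 (SE; 95% interval -0.88 to 0.67), adjusted p = 0.858 by limma. Both intervals are wide, so that sizeable changes in either direction were not detectable, and the values carry no call of detection.

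The 3 MYB genes did not move alike, and none passed the test. MYB12 (AT2G47460; chromosome 2, 19476337 to 19479478, forward strand) had 14.25, 14.73 and 14.40 on OBP4 arrays against 14.93, 14.89 and 14.89 on control arrays. Its control arrays were nearly identical, and the OBP4 arrays all lay below them, at 73.3% of the control level on average. The difference was -0.45 ± 0.14 (SE; 95% interval -0.79 to -0.11), adjusted p = 0.0951 by limma. MYB11 (AT3G62610; chromosome 3, 23154758 to 23156585, forward strand) was dim, with 7.97, 7.88 and 7.76 on OBP4 arrays and 7.23, 7.72 and 7.44 on control arrays. Its OBP4 arrays lay above the control arrays without overlap, by a narrow margin. The difference was 0.41 ± 0.14 (SE; 95% interval 0.05 to 0.76), adjusted p = 0.132 by limma.

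MYB111 (AT5G49330; chromosome 5, 19998952 to 20001378, reverse strand) is known as the flavonol activator of the cotyledons. It had 8.36, 6.40 and 6.33 on OBP4 arrays and 6.12, 5.63 and 6.30 on control arrays. Only OBP4 replicate 1 stood clearly apart, and that is also the array with the highest photosynthesis median, 15.36. The difference of 1.01 ± 0.60 (SE) had an adjusted p of 0.332 by limma, and without that array it was 0.35. With the photosynthesis mean of each array as a covariate it was 0.56, and the part of shoot tissue in it was not tested beyond that.

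The same array held the lowest OBP4 value of TT5, F3H, TT7, FLS1 and MYB12 and the highest of MYB11. Without OBP4 replicate 1 the differences were -0.28 for TT5, -0.67 for F3H, -0.18 for FLS1, -0.34 for MYB12 and 0.36 for MYB11, none past the threshold by limma. TT7 still fell without it, by 1.13, with limma's adjusted p = 0.0184. With the photosynthesis covariate TT7 fell by 1.18, with limma's adjusted p = 0.0204.

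**Figure D2:**
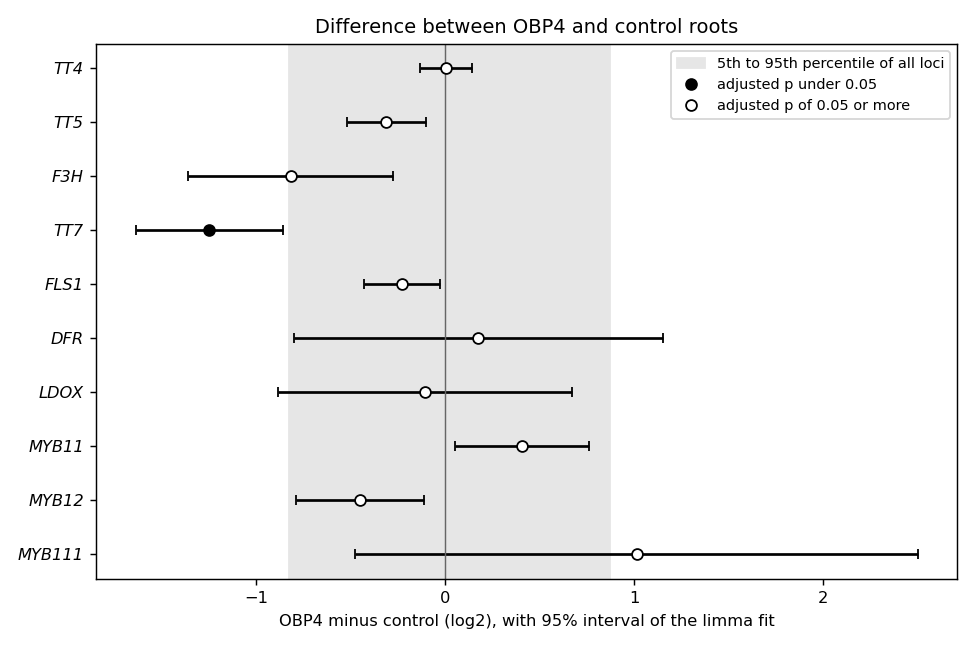
Difference between OBP4 and control roots for the 10 genes on the log2 scale, with the 95% interval of the limma fit over 3 arrays per group; filled points passed an adjusted p of 0.05 and the grey band spans the 5th to 95th percentile of all loci, -0.83 to 0.87. Only TT7 is filled, and TT7 and MYB111 have estimates outside the band.

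Averaged over the 7 enzyme genes, the arrays separated by group. The mean level was 11.82, 11.91 and 11.93 on OBP4 arrays and 12.24, 12.29 and 12.21 on control arrays. The difference of these means was -0.36 ± 0.04 (SE, n = 3 each). Without TT7 the difference of means was -0.21 ± 0.05 (SE). The 5 genes from TT4 to FLS1 averaged 13.78 ± 0.13 in OBP4 roots and 14.30 ± 0.04 in control roots (SD, n = 3 each), while DFR and LDOX averaged 7.15 ± 0.15 in OBP4 roots and 7.11 ± 0.23 in control roots. No p is given for these averages because the genes were assembled with results of these arrays known.

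How many of the 10 genes passed depended on how the dim loci and the spread were treated. With a trended, robust estimate of the spread in limma, TT5 (adjusted p = 0.0071), F3H (0.0295), FLS1 (0.0353) and MYB12 (0.0227) joined TT7 as lower, 5 of 10 genes, where 10.8% of all loci were lower. Without the dimmest 25% of loci, TT5 (0.0413), F3H (0.047) and TT7 were lower, where 13.1% of the loci left were. LDOX and MYB111 were left out by that filter and not tested. Without the dimmest 50%, TT5 (0.0197), FLS1 (0.0463), MYB12 (0.0326) and TT7 were lower, where 16.6% of the loci left were. F3H, DFR, LDOX, MYB11 and MYB111 were not tested there, so these counts are not out of 10 tested genes. In all 3 settings the differences themselves were as given above.

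Upstream of chalcone synthase no gene passed. None of 9 genes of the general phenylpropanoid pathway, which converts phenylalanine to coumaroyl-CoA, passed by limma, with 2 at an unadjusted p under 0.05 and a median of -0.01. PAL1, phenylalanine ammonia-lyase, stood at 15.74 ± 0.03 in OBP4 roots and 15.73 ± 0.02 in control roots (SD, n = 3 each). C4H, cinnamate 4-hydroxylase, stood at 15.75 ± 0.03 in OBP4 roots and 15.69 ± 0.03 in control roots. Both were near the scanner's ceiling, as were PAL2 (15.75 in OBP4 roots) and PAL4 (15.53 in OBP4 roots). PAL3, singled out after its values were seen, had 12.06 on OBP4 replicate 1 and 8.00 and 8.42 on the other OBP4 arrays, against 7.81, 8.77 and 8.71 on control arrays. That repeats the high array of MYB111. None of 7 lignin branch genes passed by limma, with 1 at an unadjusted p under 0.05 and a median of -0.01. That gene was FAH1, the ferulate 5-hydroxylase, also singled out afterwards, with a difference of -1.19 ± 0.29 (SE) and limma's adjusted p = 0.0526. Group means of the other lignin branch genes ran from 15.42 to 15.82, near the scanner's ceiling, where a change would be compressed.

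The relatives of FLS1 and the chalcone isomerase-like gene CHIL went both ways. Of 6 genes 1 rose, 1 fell and 4 did not pass, with a median of -0.18. FLS5 (AT5G63600) fell to 13.61 ± 0.23 in OBP4 roots, against 14.95 ± 0.07 in control roots (SD, n = 3 each), lower by 1.34 ± 0.13 (SE; adjusted p = 0.0031 by limma), and it kept passing whichever array was left out. FLS2 (AT5G63580) rose to 9.96 ± 0.06 in OBP4 roots, against 7.79 ± 0.95 in control roots, higher by 2.17 ± 0.47 (SE; adjusted p = 0.0393 by limma), but passed in only 1 of the 6 fits with an array left out. FLS2 to FLS5 lie side by side on chromosome 5 between 25454730 and 25462458 and are similar in sequence, so their probes may share signal and the values of single copies are uncertain. FLS3, FLS4, FLS6 and CHIL differed by -0.08, -0.55, -0.27 and -0.08, with limma's adjusted p of 0.501, 0.054, 0.532 and 0.869.

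Of 7 genes that decorate flavonols 1 fell and 0 rose, and of 6 that decorate or carry anthocyanins 2 fell and 0 rose. TT19, a glutathione transferase needed to carry anthocyanins to the vacuole, had the strongest decrease of the pathway genes examined. It stood at 10.37, 10.35 and 9.98 on OBP4 arrays against 12.28, 11.92 and 12.20 on control arrays, a fall of 1.90 ± 0.15 (SE) on the log2 scale to 26.8% of the control level, with limma's adjusted p = 0.0017. TT19 passed whichever array was left out. UGT79B1, an anthocyanin glycosyltransferase, fell by 1.19 ± 0.22 (SE) with limma's adjusted p = 0.0224 and passed in 2 of those fits. Its levels were low, 7.83 ± 0.30 in OBP4 roots and 9.02 ± 0.30 in control roots (SD, n = 3 each). AT1G06000, annotated as a UDP-glycosyltransferase family gene, fell by 0.34 ± 0.07 (SE) with limma's adjusted p = 0.029 and passed in 1 of them. UGT78D2, which glucosylates flavonols, differed by -0.07 ± 0.07 (SE) and did not pass. It stood at 15.39 in OBP4 roots and 15.47 in control roots, near the scanner's ceiling, where a change would be compressed. None of 5 proanthocyanidin genes passed by limma, with 1 at an unadjusted p under 0.05.

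Of 24 other regulators of flavonoid genes, 1 rose, 0 fell and 23 did not pass, with a median of -0.16. Estimates were below 0 for 20 of the 24, beside 15281 of 32627 over all loci. ANL2, a homeobox gene linked to anthocyanin in subepidermal cells, rose to 10.41 ± 0.22 in OBP4 roots, against 9.53 ± 0.30 in control roots (SD, n = 3 each), by 0.88 ± 0.19 (SE) with limma's adjusted p = 0.0383, and did not pass once any single array was removed. The WD40 gene TTG1 differed by -0.35 ± 0.09 (SE; adjusted p = 0.0736), and the light-signalling bZIP gene HY5 by -0.17 ± 0.10 (adjusted p = 0.321). The bHLH gene TT8 differed by -0.54 ± 0.37 (adjusted p = 0.398) and MYB75 by -0.01 ± 0.42 (adjusted p = 0.988), both dim in either group. MYBL2, a repressor of anthocyanin genes singled out after its values were seen, had 11.08, 9.64 and 9.93 on OBP4 arrays and 11.35, 11.49 and 11.72 on control arrays, with limma's adjusted p = 0.093. Of 4 kelch F-box genes, which act in the breakdown of phenylalanine ammonia-lyase and chalcone synthase, KFB01 fell by 0.35 ± 0.08 (SE; adjusted p = 0.0393), a call that held in 1 fit with an array left out. Over all 68 pathway genes outside the 10, 2 rose and 5 fell, 10.3% in all, a share close to the 13.7% of all loci.

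**Figure D3:**
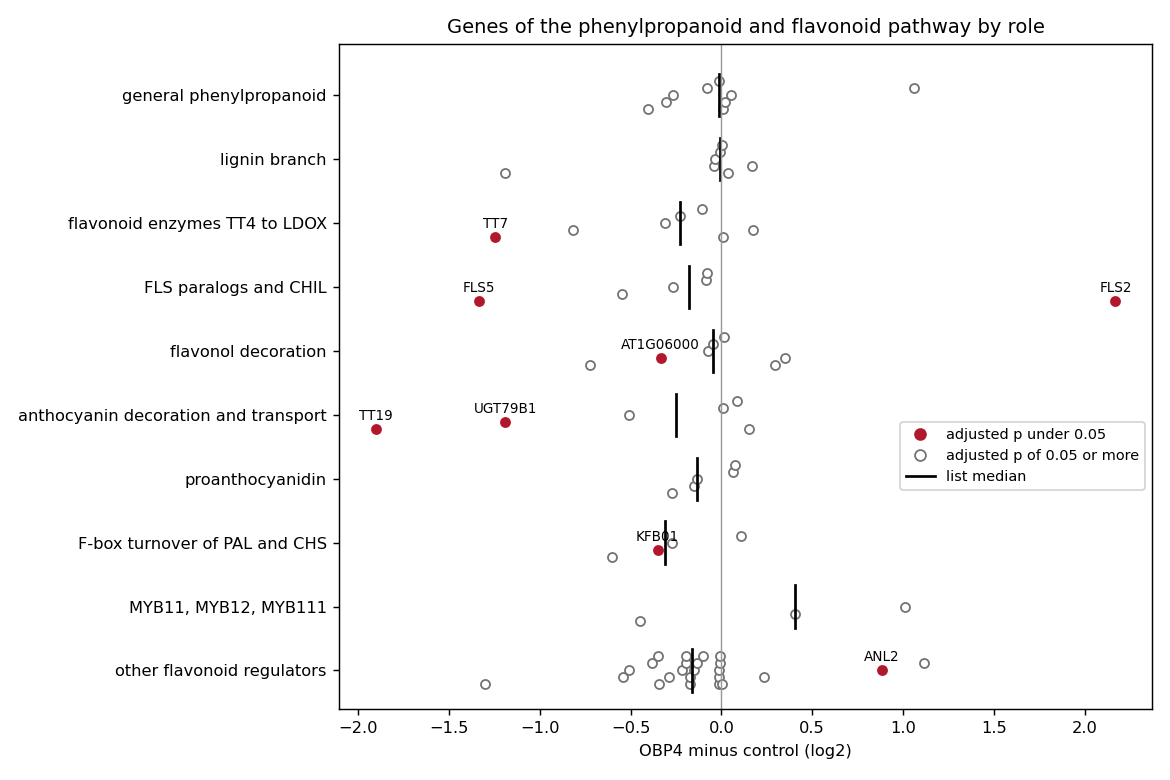
Difference between OBP4 and control roots on the log2 scale for the 10 genes and 68 further genes of the phenylpropanoid and flavonoid pathway, grouped by role; each point is 1 gene, filled red where the adjusted p was under 0.05, and the black bar is the list median. Red points are few and spread over several roles, from TT19 at -1.90 to FLS2 at 2.17, and TT7 is the only one among the enzymes from TT4 to LDOX.

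Several loci outside these lists followed the enzyme mean closely over the 6 arrays. With profiles centred on their own mean, the 5 named loci with the smallest root-mean-square difference from the mean of the 7 enzymes were GGH1 (0.016 log2 units), MES14 (0.018), CNX7 (0.031), GOX3 (0.033) and TED4 (0.034). Their differences between OBP4 and control roots ran from -0.37 to -0.32, which follows from how they were chosen. Close matches are bound to occur among so many loci over 6 arrays, and shared regulation was not tested.

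A second deposited table of log2 values under the same sample names gave a very different picture of these genes. Its normalization is not stated, and the quartiles of its 37118 rows, 7.61, 11.84 and 14.09, were the same in every column to 2 decimals. It did not follow the OBP4 label: OBP4 stood at 13.96 ± 0.04 in columns labelled OBP4 and 13.95 ± 0.13 in columns labelled control (SD, n = 3 each). The deviations of its columns from their group means correlated across loci with those of the arrays of the same name at only -0.41 to 0.13, so whether it holds the same hybridisations is not known. Differences were tested within that table only, and its columns are named by their labels. There 7 of the 10 genes were higher in the columns labelled OBP4 and 0 were lower by limma with an adjusted p under 0.05, where 3.17% of all loci were higher and 2.38% lower, 5.55% in all.

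TT5 had 15.51, 15.53 and 15.37 in columns labelled OBP4 and 9.63, 9.68 and 10.33 in those labelled control, a difference of 5.59 ± 0.20 (SE). Its OBP4-label columns were near the scanner's ceiling, so this difference may be compressed. FLS1 had 14.67, 14.80 and 14.40 under the OBP4 label, against 8.89, 9.22 and 9.37 in columns labelled control, a difference of 5.46 ± 0.17 (SE). TT4 had 15.77, 15.72 and 15.88 under the OBP4 label, against 9.46, 10.91 and 11.54 in columns labelled control. Its OBP4-label columns were as close to the scanner's ceiling as the arrays, so the difference of 5.15 ± 0.52 (SE) is a lower bound. TT7 (4.85 ± 0.20, SE) followed. Among all 32627 loci of that table, ordered by difference from the highest down, TT5 was at rank 1, FLS1 at rank 2, TT4, by its bound, at rank 3 and TT7 at rank 5. With TT4 and TT5 near the ceiling, the order of TT5, FLS1 and TT4 is uncertain. F3H (2.38), MYB12 (2.65) and MYB11 (1.05) were higher too, while DFR (0.06), LDOX (-0.30) and MYB111 (0.82; adjusted p = 0.0539 by limma) did not pass.

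Of the 68 further pathway genes 9 were higher, 2 lower and 57 did not pass by limma in that table. Of 7 flavonol decoration genes 3 were higher, UGT78D1 by 2.76, UGT78D2 by 2.27 and AT1G06000 by 0.77, and 4 did not pass. Among the FLS relatives and CHIL 2 of 6 were higher, CHIL by 2.12 and, by less, FLS2, and 4 did not pass. The 4-coumarate ligase gene 4CL3 was higher by 3.04, and the other 8 of 9 general phenylpropanoid genes did not pass. Of 24 other regulators 3 were higher, among them HY5 (1.07) and its relative HYH (2.14), and 21 did not pass. None of the 7 lignin branch genes passed there. Apart from FAH1, which differed by 0.02, their means were 15.44 or above under both labels. Those of PAL1, PAL2, PAL4 and C4H were 15.38 or above. Such levels are near the scanner's ceiling, where a change would be compressed. The photosynthesis median was 11.05, 10.99 and 11.13 in columns labelled OBP4 and 9.18, 9.12 and 9.61 in columns labelled control, and 19 of its 29 genes were higher. The part of shoot tissue in these differences was not tested.

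**Figure D4:**
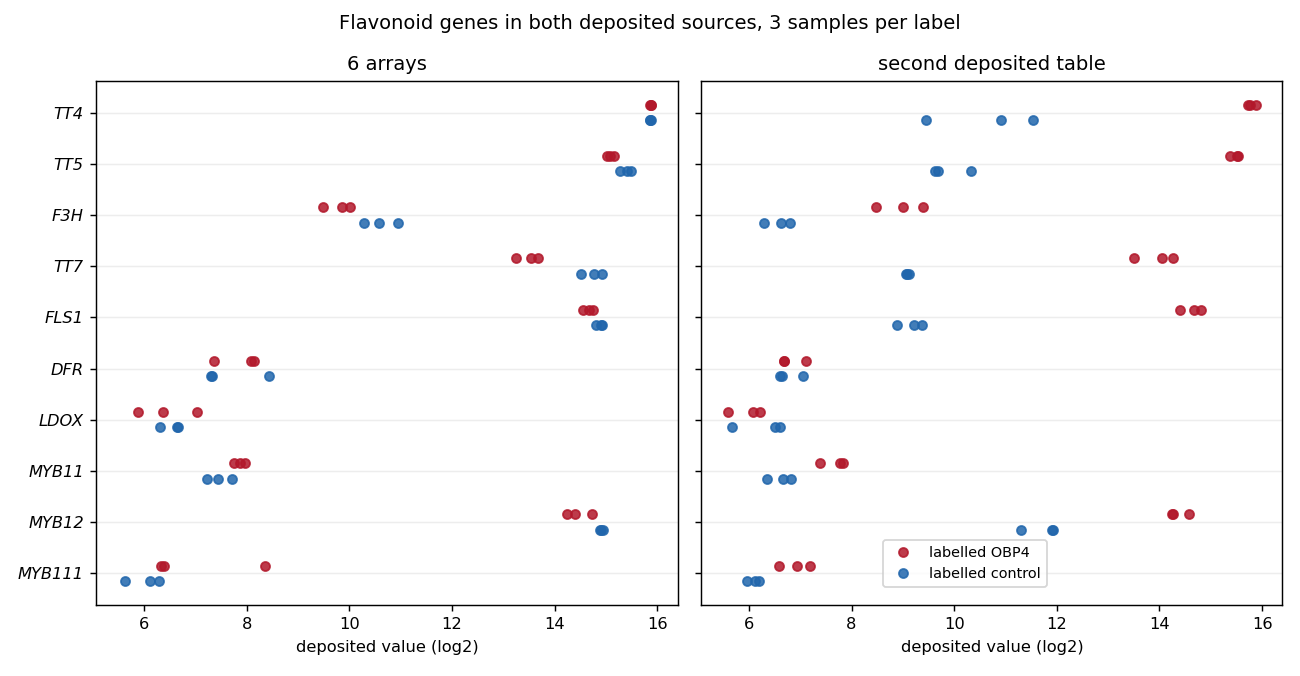
Deposited log2 values of the 10 genes in the 6 arrays (left panel) and in the second table (right panel), red for samples labelled OBP4 and blue for samples labelled control, 3 points each; the sources were normalized separately. In the arrays the labels are at most 1.25 apart in their means. In the second table TT4, TT5, TT7 and FLS1 labelled control lie 4.85 to 5.59 below those labelled OBP4. Near the scanner's ceiling, the difference of TT4 is a lower bound and that of TT5 may be compressed.

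Both sources were normalized separately, so their levels are only set side by side, with no test between them. In the second table TT5 averaged 15.47 under the OBP4 label and 9.88 under the control label, against 15.09 on OBP4 arrays and 15.40 on control arrays. FLS1 averaged 14.62 under the OBP4 label and 9.16 under the control label, against 14.66 on OBP4 arrays and 14.88 on control arrays. DFR and LDOX were dim in both sources.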

How the data were processed

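Root RNA was labelled with Cy3 and hybridised to 6 one-colour NimbleGen arrays, 3 of pER8::OBP4 and 3 of pER8::GFP roots, per the labels. The deposited tables hold log2 values for 37118 gene models per array. The titles of the deposited tables name RMA, a method of background correction, between-array normalization and probe summary, without software or settings. All 6 arrays carry one slide number, so slide was no batch. The number of probes per row (the deposited PROBE_PAIRS column) was used only as a description.

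Rows of one locus were averaged, giving 32627 loci. The test was two-sided, by limma 3.58.1 (lmFit, eBayes) run in R 4.3.3, and p-values were adjusted by Benjamini and Hochberg's method across the 32627 loci, with calls made under 0.05. The labels name no test. The precision is limited by 3 arrays per group, and no depth applies.

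The genes and lists were chosen with earlier results of these data known. Named are all 10 genes, up to 4 genes past the threshold per further list, partner genes named regardless of their p (CHIL, the FLS relatives, TT8, TTG1, MYB75, HY5, PAL1, C4H and UGT78D2), OBP4, and the 5 loci nearest the enzyme mean. Further genes are said to be singled out, and in the second table genes were named after their values were seen. Gene symbols are names that NCBI lists for the locus in TAIR10.1, as symbol or synonym, or that the array annotation gives. The 5 list entries whose name was found in none of these are given by locus. Alternatives were other scalings, the second deposited table of log2 values, filters on dim loci, other eBayes settings, array weights, a replicate block, the brightest row per locus, a photosynthesis covariate, a stricter threshold and leaving out each array. Same-numbered arrays did not vary together (correlations of deviations from -0.20 to 0.09), so the numbers were not taken as pairs. No sequence was used.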

Additional observations from a re-analysis of the deposited data

Results flagged for a closer look

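A signal lay in the second deposited table, on which no main result rests. Under its labels 7 of the 10 genes differed, OBP4 labels minus control labels, by 5.59 (TT5), 5.46 (FLS1), 5.15 (TT4, a lower bound near the scanner's ceiling), 4.85 (TT7), 2.65 (MYB12), 2.38 (F3H) and 1.05 (MYB11) on the log2 scale, each with adjusted p under 0.05 by limma. TT5 was near that ceiling too under the OBP4 label, so its difference may be compressed. All 3 columns labelled OBP4 lay above all 3 labelled control for each of these 7 genes. In the arrays the same differences were -0.31, -0.23, 0.01, -1.25, -0.45, -0.82 and 0.41. Groups of 3 arrays are too small for a test of single outlying arrays, so the high MYB111 value of OBP4 replicate 1 was not tested.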

How the results depend on the processing

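Counts below are of loci past limma's threshold. Whether the second table holds the same hybridisations is not known, so its values may not be another processing of these arrays. In it, 1034 loci were higher and 778 lower. Of the 10 genes 7 were higher and 0 lower, and of the 68 further pathway genes 9 were higher and 2 lower. The enzyme mean reversed there to 3.31, and so did TT5 (5.59), F3H (2.38), TT7 (4.85), FLS1 (5.46), MYB12 (2.65), CHIL (2.12), UGT78D2 (2.27), AT1G06000 (0.77), TT19 (0.86), MYB75 (0.13), ANL2 (-0.37) and HY5 (1.07); the cause was not tested. The filters on dim loci left out LDOX and MYB111, and that of 50% also F3H, DFR and MYB11 and, among the further genes, FLS2 and ANL2. Lower among the 10 genes were 3 without the dimmest 25% of loci, 4 without the dimmest 50% and 5 with trend and robust settings, with fewer loci or another spread estimate by construction. Lower among the further genes were 8, 10 and 9, and higher 0 without the dimmest 50%, under quantile normalization and with the photosynthesis covariate. Trend and robust settings gave 2561 higher loci. An adjusted p of 0.01 gave 669 higher and 1295 lower loci. With the replicate block, 588 loci were higher and 1114 lower, 0 of the 10 genes passed (TT7 with adjusted p = 0.0546), and 0 further genes were higher and 2 lower. Without single arrays, 892 to 1309 loci were higher and 1571 to 2048 lower, 1 to 2 of the 10 genes were lower and 0 higher, 0 to 1 further genes were higher and 2 to 6 lower, and the enzyme mean was -0.38 to -0.33. MYB12 was the added gene without OBP4 replicate 2 (adjusted p = 0.0255). Estimates near 0 turned sign: TT4 (-0.0032) and PAL1 (-0.0016) under cyclic loess, CHIL with the brightest row (0.010) and the photosynthesis covariate (0.011), MYB75 with median centring (0.012), array weights (0.14) and the photosynthesis covariate (0.097). Without single arrays they ranged from -0.019 to 0.55 for DFR, -0.41 to 0.17 for LDOX, -0.0084 to 0.015 for PAL1, -0.26 to 0.16 for CHIL and -0.30 to 0.46 for MYB75. TT7 kept its direction in the 16 alternatives on the arrays and passed in all but the block. Signal limits TT4, at the ceiling, TT5, near it, and the dim DFR, LDOX, MYB11 and MYB111.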

Other observations

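Control replicate 2 held the highest value of several dim genes of the anthocyanin branch, which were picked out after their values were seen. DFR had 8.45 there, against 7.32 and 7.30 on the other control arrays, MYB75 had 7.03 against 5.74 and 5.51, and TT8 had 7.23 against 5.96 and 5.94. Other dim genes had their lowest control value on that array, and these too were picked out afterwards. LDOX had 6.30 against 6.64 and 6.67. MYB114, one of the other regulators, had 5.87 against 6.95 and 6.99. The anthocyanin decoration gene 5MAT was also lowest there among control arrays, at 6.92. Control replicate 2 was thus not high for every dim gene of the branch. The mean of DFR and LDOX was 7.37 there, against 6.98 and 6.99 on the other control arrays.

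UGT84A1, a gene for a glycosyltransferase of phenylpropanoids, held rank 6 among all loci by difference in the second table, at 4.82 higher in columns labelled OBP4, while in the arrays its difference was -1.16. ELIP1, an early light-induced gene, held rank 9 there at 4.46, against 0.07 in the arrays. DIR5, a dirigent protein gene at rank 10, was higher under the OBP4 label in both sources, by 4.26 in the second table and 3.99 in the arrays.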
